A study of Mus musculus with 24 samples.

Results

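Mouse primary chondrocytes treated with IL-1β in normal culture were compared between 72 h and 36 h of treatment, gene by gene. The libraries were chosen by their labels alone, 3 at each time, and made up 6 of the 24 libraries of the study. Chondrocytes are the cells that make and maintain cartilage, and normal culture means that they were kept without other cells. The whole study crossed culture (normal, or a transwell co-culture with primary dermal fibroblasts), time (36 h or 72 h) and IL-1β (absent, or present at 10 ng/ml). All cells were wild type. The sources used here give no strain, age or sex of the mice. The following groups were used: normal culture with IL-1β, normal culture without it, and co-culture with IL-1β, each at 36 h and 72 h. IL-1β was added 24 h after the cells attached, so that a longer exposure was also a longer time in culture, and the untreated normal cultures show the time in culture alone. No source used here gives medium changes or repeated doses of IL-1β. The labels do not say that the 3 libraries of a group came from separate animals or cultures, so the p-values reflect the spread among these libraries alone, and that spread may be technical.

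IL-1β is an inflammatory cytokine that binds a receptor on chondrocytes and activates NF-kB and the stress kinases. In these cells it is known to raise cytokines, acute phase proteins, nitric oxide synthase, cyclooxygenase and matrix proteases, and to lower type II collagen and aggrecan. Part of the NF-kB response encodes its own inhibitors.

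Each value is an FPKM, the authors' count of fragments scaled to gene length and to the mapped fragments of the library. Summed FPKM ran from 455139 to 469939 in the 36 h libraries, from 465482 to 506621 in the 72 h libraries and from 438242 to 504696 in the other 18. Read counts were not analysed here, so depth is unknown and no counting interval is given. Over the 6 libraries a first principal component with 84.4% of the variance separated the times, and a second with 8.31% spread the 72 h libraries. Libraries of the same time correlated at 0.997 at 36 h and between 0.989 and 0.995 at 72 h, and the residual SD on the log2 scale was 0.0994 and 0.168. The 72 h libraries were less alike than the 36 h libraries, and replicate 1 differed from replicates 2 and 3 in ways described at the end. Of 14 chondrocyte markers, 12 were above the filter on low values, with Col2a1 between 112 and 209 FPKM. Acan was lowest at 1.02 and highest at 2.22 FPKM. The 15 fibroblast markers summed to between 3674 and 5278 FPKM.

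Between 36 h and 72 h, 3692 of 12178 tested genes rose (30.3%) and 3130 fell (25.7%), 6822 in all (56%). Changes are differences of log2(FPKM + 1), which understate the change of genes near 0. They were tested with limma on the 6 libraries, and p-values were adjusted over all tested genes by Benjamini-Hochberg, with 0.05 as the limit for a call. Of those genes, 392 rose and 317 fell at least 2-fold on that scale. These 2-fold counts depend on the scale, with 590 higher and 631 lower at a pseudocount of 0.1, and 426 and 520 after rescaling to TPM, so that neither direction led throughout. The median change over all tested genes was 0.02. For 7875 genes (64.7%) no library of one time overlapped those of the other. In bulk RNA a fall of a gene in each cell and a fall in the number of cells that express it cannot be told apart.

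The counts for each gene list are read against these shares, since more than 1 gene in 2 of the whole table passed. Of 33 pathway lists with tested members, the highest shares of risen genes were in mitosis, DNA replication, amino acid stress, endoplasmic reticulum chaperones, immediate early genes and glycolysis. The highest shares of fallen genes were in the interferon and MHC class I list, the small leucine-rich and elastic fibre matrix, and the collagens.

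**Figure D1:**
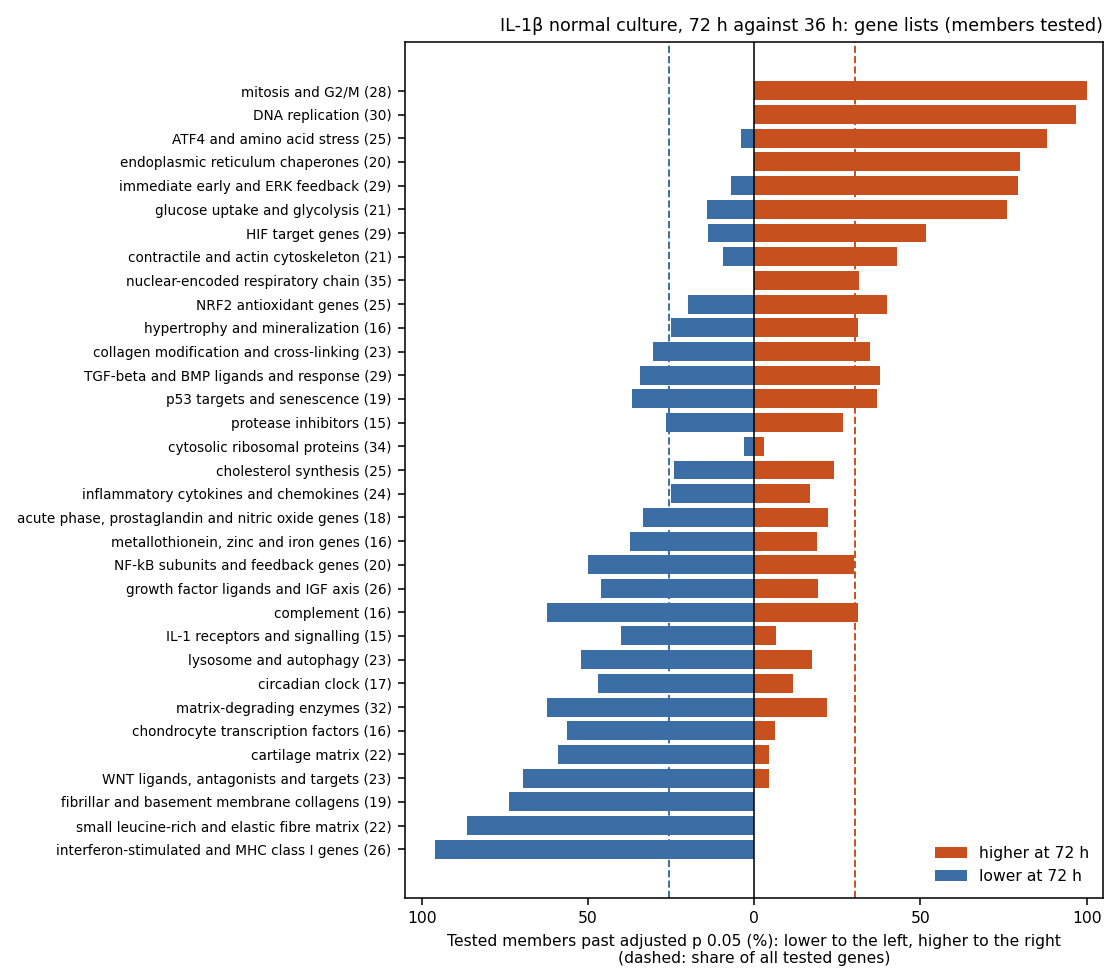
Percentage of the tested members of each gene list that rose (orange, right) or fell (blue, left) between 36 h and 72 h in IL-1β-treated normal culture, with the number of tested members in brackets. Dashed lines mark the shares over all tested genes, 30.3% higher and 25.7% lower. All 28 tested mitosis genes rose and 25 of 26 interferon and MHC class I genes fell.

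Genes of cell division had the 2 largest median rises of the 33 lists. Of 30 tested DNA replication genes 29 rose (median change 1.60), and all 28 tested genes of mitosis and G2/M rose (median 1.72). Mcm5 was at 1.29, 2.16 and 2.00 FPKM at 36 h and at 11.1, 17.1 and 17.9 FPKM at 72 h (log2 change 2.53, SE 0.18, adjusted p = 1.13e-05). Mcm5 (ENSMUSG00000005410, chromosome 8, 75109569 to 75128439, plus strand, GRCm38) encodes a subunit of the helicase that opens DNA for replication, and its lowest 72 h library was well above its highest 36 h library. Tk1, a thymidine kinase gene of S phase, was at 5.12, 4.44 and 4.77 FPKM at 36 h and at 22.3, 33.8 and 36.2 FPKM at 72 h (log2 change 2.43, SE 0.16, adjusted p = 8.13e-06). Birc5 was at 6.45, 9.76 and 7.14 FPKM at 36 h and at 33.1, 51.1 and 57.6 FPKM at 72 h (log2 change 2.44, SE 0.20, adjusted p = 2.04e-05). Birc5 encodes survivin, a part of the complex that corrects chromosome attachment. Cdc20, an activator of the ubiquitin ligase that starts anaphase, was at 8.59, 9.05 and 7.81 FPKM at 36 h and at 32.4, 46.7 and 48.2 FPKM at 72 h (log2 change 2.18, SE 0.14, adjusted p = 7.71e-06). In each of these genes the groups did not overlap, and 72 h replicate 1 was the lowest of its group. Plk1, a mitotic kinase, rose by 2.24 and Mcm3, another helicase subunit, by 2.40. The most abundant DNA replication gene at 72 h was Rrm2, a subunit of ribonucleotide reductase, at 32.8, 35.5 and 35.1 FPKM at 36 h and 127, 140.2 and 141 FPKM at 72 h (log2 change 1.95, SE 0.07, adjusted p = 1.61e-06).

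The untreated cultures moved the same way, from a higher level. There all 30 DNA replication and all 28 mitosis genes also rose (medians 0.78 and 1.11), where 63.6% of all tested genes changed, 36.2% upward and 27.4% downward. Mcm5 went from 11.4 ± 0.48 to 26.8 ± 1.33 FPKM without IL-1β (SD, n = 3), and from 1.82 ± 0.463 to 15.4 ± 3.70 FPKM with it. The rise was larger with IL-1β for 23 of 30 DNA replication genes and 20 of 28 mitosis genes, by the test of the difference between the 2 changes. Over all tested genes that difference passed in 37.7%, positive in 19.6% and negative in 18.1%. For Mcm5 it was 1.36 (SE 0.21, adjusted p = 0.000234), for Tk1 1.59 (SE 0.18, adjusted p = 2.31e-05) and for Birc5 1.23 (SE 0.24, adjusted p = 0.00144). For Rrm2 it was 0.12 (SE 0.08, adjusted p = 0.238), and that gene had risen by 1.83 without IL-1β. At 72 h the treated mean was still under the untreated mean for all of these genes.

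**Figure D2:**
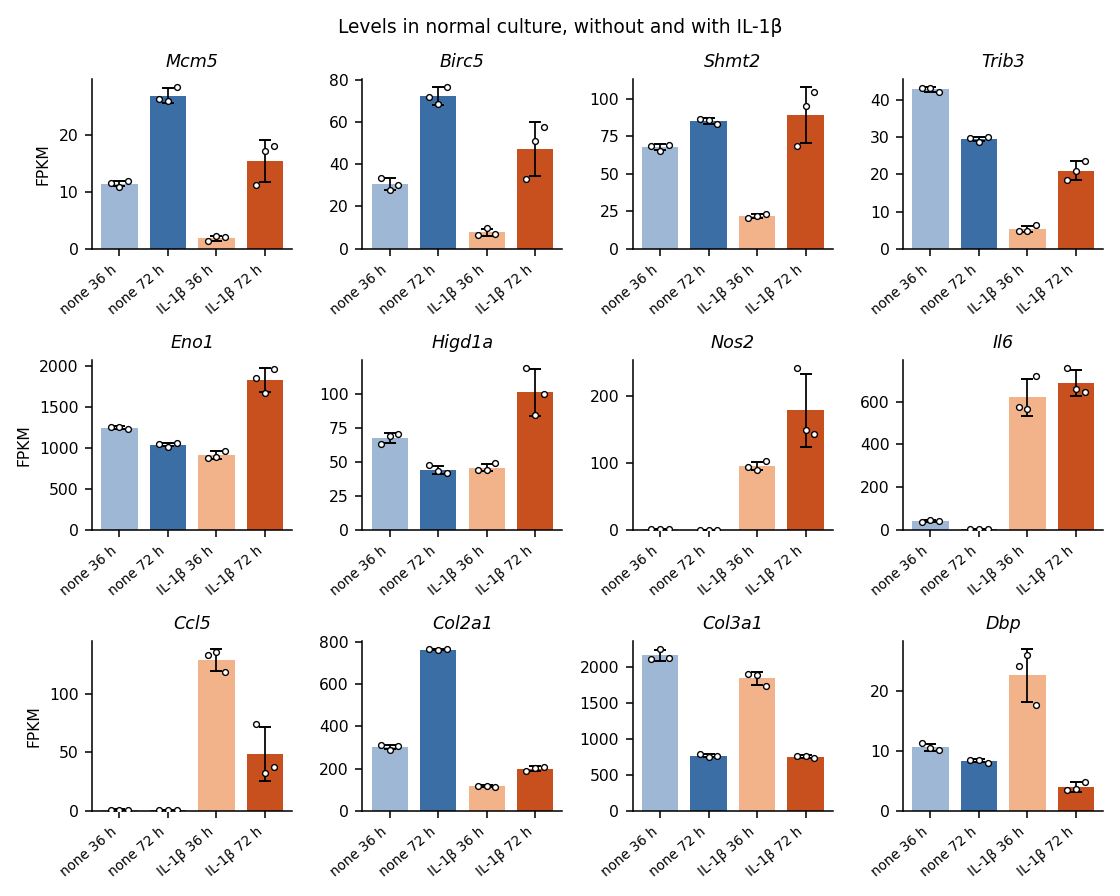
Levels of 12 genes in FPKM (vertical axes, from 0) in normal culture without IL-1β (blue) and with it (orange) at 36 h (pale) and 72 h (dark). Bars are means of 3 libraries, lines the SD and circles the libraries. Mcm5, Birc5, Shmt2 and Eno1 rose with IL-1β between the times, while Ccl5, Col3a1 and Dbp fell.

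Trp53, which encodes p53, rose from 42.8, 45.0 and 47.4 FPKM to 87.7, 92.3 and 99.2 FPKM (log2 change 1.03, SE 0.07, adjusted p = 1.04e-05). Of 19 tested p53 target and senescence genes 7 rose and 7 fell (median -0.01), with 3 higher without 36 h replicate 1 and 4 without 36 h replicate 2. In untreated cultures 12 of the 19 rose and 6 fell (median 0.62). The change was less positive with IL-1β for 11 of the 19 and more positive for 3. Cdkn1a was at 463, 466 and 468 FPKM at 36 h and at 525, 376 and 403 FPKM at 72 h. Cdkn1a encodes the cell cycle inhibitor p21, and its change did not pass (log2 change -0.12, SE 0.12, adjusted p = 0.433), while its 72 h libraries lay on both sides of the 36 h level. Without 72 h replicate 1 the change passed, at an adjusted p of 0.0108 in limma. In untreated cultures Cdkn1a rose from 99.8 ± 7.84 to 177 ± 1.63 FPKM, and the difference between the changes was -0.94 (SE 0.14, adjusted p = 0.000174). Gadd45a and Gadd45b, stress genes that p53 and NF-kB can induce, fell by 0.74 and 0.83. They changed by -0.73 and -0.60 without IL-1β, and neither difference passed in limma (adjusted p = 0.895 and 0.156). Cdkn2a, which encodes p16 and p19ARF, rose from 5.84 ± 0.561 to 9.70 ± 1.03 FPKM (log2 change 0.64, SE 0.10, adjusted p = 0.000582).

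Genes of the amino acid stress response rose together. ATF4 is a transcription factor whose translation increases under amino acid or endoplasmic reticulum stress, and its targets import and make amino acids and load tRNAs. Of 25 tested genes of this list 22 rose (median 0.83). Shmt2 was at 20.5, 21.5 and 23.4 FPKM at 36 h and at 68.2, 94.8 and 104 FPKM at 72 h (log2 change 1.96, SE 0.14, adjusted p = 1.12e-05). Shmt2 (ENSMUSG00000025403, chromosome 10, 127517123 to 127522444, minus strand) encodes the mitochondrial enzyme that turns serine into glycine and feeds the folate cycle. Trib3 was at 4.85, 4.75 and 6.34 FPKM at 36 h and at 18.3, 21.0 and 23.5 FPKM at 72 h (log2 change 1.80, SE 0.12, adjusted p = 8.63e-06). Trib3 (ENSMUSG00000032715, chromosome 2, 152337422 to 152344032, minus strand) encodes a pseudokinase that ATF4 induces and that restrains it. The groups overlapped in neither gene. Phgdh and Psph, which make serine, rose by 1.65 and 1.52. Mthfd2, a mitochondrial folate enzyme, rose by 1.57, and Slc7a5, an importer of leucine, by 1.40. Atf4 was at 93.2, 103 and 104 FPKM at 36 h and at 187, 206 and 228 FPKM at 72 h (log2 change 1.04, SE 0.09, adjusted p = 2.24e-05). The importer gene Slc38a2 was at 77.6, 68.1 and 75.8 FPKM and 75.4, 85.4 and 75.3 FPKM, and did not pass (log2 change 0.09, SE 0.08, adjusted p = 0.352).

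In untreated cultures 9 of these 25 genes rose and 10 fell (median -0.01), and the change was more positive with IL-1β for 22 of the 25. Trib3 fell from 42.8 ± 0.647 to 29.4 ± 0.617 FPKM without IL-1β and rose from 5.31 ± 0.89 to 20.9 ± 2.58 FPKM with it, a difference of 2.32 (SE 0.13, adjusted p = 6.91e-08). For Shmt2 the untreated levels went from 67.5 ± 1.87 to 85.1 ± 1.72 FPKM, a difference of 1.63 (SE 0.16, adjusted p = 6.44e-06). At 36 h both genes were lower with IL-1β than without it, and at 72 h Shmt2 was at similar means in both (89.0 and 85.1 FPKM). In the IL-1β co-culture 22 of the 25 also rose, where 62.2% of all tested genes changed, 34.1% upward and 28% downward.

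Promoter letters are shown for 2 risen genes of this list, as examples of a motif that the bZIP factors ATF4 and C/EBP are known to bind together. Both stretches are written 5′ to 3′ on the plus strand, from RefSeq on GRCm38.p6, with the motif in capitals as it reads on that strand, and both lie before the RefSeq start of the gene.
Chac1: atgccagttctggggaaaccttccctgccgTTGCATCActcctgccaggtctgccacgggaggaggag
Vldlr: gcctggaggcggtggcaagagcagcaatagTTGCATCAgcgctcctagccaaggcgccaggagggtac
The first lies at chr2:119351019-119351086 before Chac1, a glutathione-degrading enzyme, and the second at chr19:27216790-27216857 upstream of the RefSeq start of Vldlr, a lipoprotein receptor. GENCODE vM21 starts Vldlr further upstream, at 27216484, so by that annotation the second stretch lies inside the gene. Both genes lie on the plus strand and were chosen to show the motif after their values were seen. Chac1 was at 3.25, 3.51 and 3.19 FPKM at 36 h and at 7.99, 11.1 and 12.4 FPKM at 72 h (log2 change 1.39, SE 0.14, adjusted p = 5.02e-05). Vldlr was at 7.05, 6.56 and 7.91 FPKM at 36 h and at 19.9, 12.6 and 10.3 FPKM at 72 h (log2 change 0.86, SE 0.19, adjusted p = 0.00482). The motif TGATGNAA was searched on both strands in the 300 bases from 250 before to 50 after the start of each gene. It was found for 8 of the 23 list genes that matched the promoter table (34.8%) and for 4.51% of all 27025 genes in it. A match describes the letters and is no evidence of binding.

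Endoplasmic reticulum chaperones rose as well, in 16 of 20 tested cases (median 0.45), and in untreated cultures in 15 with 3 lower. Sdf2l1, a cofactor of the chaperone BiP, rose by 0.93 and Creld2, a stress-induced disulfide isomerase, by 0.77. The most abundant, the calcium-binding chaperone gene Calr, was at 711, 729.5 and 737 FPKM and then at 1231, 1002 and 1049 FPKM (log2 change 0.59, SE 0.10, adjusted p = 0.00106). Here the change with IL-1β was more positive than without it for 8 genes and less positive for 1.

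Glucose uptake and glycolysis genes rose in 16 of 21 tested cases and fell in 3, or in 5 without 72 h replicate 1 (median 0.61). Eno1 was at 873, 888 and 967 FPKM at 36 h and at 1861, 1673 and 1963 FPKM at 72 h (log2 change 1.01, SE 0.10, adjusted p = 5.7e-05). Eno1 (ENSMUSG00000063524, chromosome 4, 150236721 to 150248879, plus strand) encodes the glycolytic enzyme enolase, and its family includes near-identical pseudogenes with which reads could be shared. Ldha, the enzyme that makes lactate, was at 965, 959 and 1079 FPKM at 36 h and at 1893, 1704 and 1911 FPKM at 72 h (log2 change 0.88, SE 0.10, adjusted p = 0.000117). Slc16a3 was at 80.9, 77.4 and 91.0 FPKM at 36 h and at 186, 163 and 182 FPKM at 72 h (log2 change 1.08, SE 0.08, adjusted p = 1.58e-05). Slc16a3 encodes the transporter that exports lactate. The 3 genes had no overlap between the times. Hk2, a hexokinase, rose by 0.95, Pfkp, a phosphofructokinase, by 1.11, and Gapdh, often taken as a constant reference, by 0.77. Without IL-1β 15 of the 21 fell and 1 rose, and the change was more positive with IL-1β for 18.

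HIF target genes, which low oxygen induces, were divided. Of 29 tested, 15 rose and 4 fell with IL-1β (median 0.23), and the median kept its sign without any one library. The count of risen genes was 8 without 36 h replicate 1 and 9 without 36 h replicate 2, and 8 genes fell without 72 h replicate 1. Higd1a, a mitochondrial protein gene of the hypoxia response, was at 44.1, 44.0 and 48.7 FPKM at 36 h and at 119, 84.2 and 99.9 FPKM at 72 h (log2 change 1.12, SE 0.11, adjusted p = 6.85e-05). Bnip3, which encodes a receptor for the removal of mitochondria, was at 227, 222 and 264 FPKM at 36 h and at 450.1, 333 and 334 FPKM at 72 h (log2 change 0.63, SE 0.13, adjusted p = 0.00269). In both genes every 72 h library was above the 36 h libraries, and replicate 1 was the highest. Car9 was at 121, 115 and 115 FPKM at 36 h and at 45.9, 30.5 and 33.6 FPKM at 72 h (log2 change -1.67, SE 0.13, adjusted p = 1.62e-05). Car9, carbonic anhydrase 9, is a widely used hypoxia marker and moved against Higd1a and Bnip3. Angptl4, an inhibitor of lipoprotein lipase, fell from 110.3 ± 7.61 to 38.6 ± 5.86 FPKM (adjusted p = 1.1e-05), and Adm, the vasodilator adrenomedullin, fell by 0.82. Vegfa, the vessel growth factor, was at 218, 197 and 205 FPKM and 239, 187 and 183 FPKM and did not pass (log2 change -0.04, SE 0.11, adjusted p = 0.788). Hif1a itself fell from 342 ± 9.20 to 203 ± 27.0 FPKM (log2 change -0.76, SE 0.10, adjusted p = 0.000277), and Epas1, which encodes HIF-2α, by 1.26.

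Without IL-1β 25 of the 29 HIF targets fell and 2 rose (median -0.64), and 23 had a more positive change with IL-1β and 1 a less positive one. Car9 went from 95.4 ± 4.44 to 8.56 ± 0.257 FPKM without IL-1β, a difference of 1.66 (SE 0.15, adjusted p = 3.55e-06), although it fell in both. Higd1a went from 67.3 ± 3.84 to 44.1 ± 2.95 FPKM, a difference of 1.72 (SE 0.14, adjusted p = 1.49e-06), with opposite directions.

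The cytokines and their regulators changed in both directions. Of 24 tested cytokine and chemokine genes 4 rose and 6 fell (median -0.05). Il6 was at 574, 566 and 721 FPKM at 36 h and at 758, 658 and 646 FPKM at 72 h (log2 change 0.15, SE 0.12, adjusted p = 0.286), with overlap between the times. Ccl2, a monocyte chemokine, was at 1229, 1216 and 1385 FPKM at 36 h and at 2178, 1758 and 1871 FPKM at 72 h (log2 change 0.60, SE 0.11, adjusted p = 0.00212). Ccl5, a chemokine for T cells and monocytes, was at 133, 135 and 118 FPKM at 36 h and at 74.4, 32.1 and 37.6 FPKM at 72 h (adjusted p = 0.00107), with means of 129 and 48.0 FPKM. Ccl2 was higher and Ccl5 lower in every 72 h library than in every 36 h library. Tslp, an epithelial-type cytokine, and Il11, a relative of IL-6, rose by 1.33 and 1.23. Cxcl12, a chemokine that retains stem and immune cells, fell by 1.23, and Cx3cl1, which encodes fractalkine, by 0.73. Cxcl5 and Cxcl1, neutrophil chemokines, were the most abundant with Ccl2. Cxcl5 was at 4169.8, 4012 and 4295 FPKM and 4093, 2961 and 3009 FPKM, and did not pass (log2 change -0.33, SE 0.15, adjusted p = 0.0895). Replicate 1 at 72 h was the highest of its group in 18 of the 24 genes, and without it 11 of 24 fell in place of 6.

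In untreated cultures 17 of the 24 fell and 4 rose (median -0.87), and the change was more positive with IL-1β for 16 and less positive for 3. Ccl2 fell from 262 ± 17.3 to 49.5 ± 2.05 FPKM without IL-1β and rose with it, a difference of 2.97 (SE 0.12, adjusted p = 2.74e-09). Ccl5 was under 1 FPKM at both times without IL-1β.

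Of 20 tested NF-kB subunit and feedback genes 6 rose and 10 fell (median -0.25), against 1 and 16 without IL-1β. The adhesion molecule gene Icam1, a classical NF-kB target, fell most. Icam1 was at 39.0, 37.2 and 36.0 FPKM at 36 h and at 23.6, 12.8 and 13.0 FPKM at 72 h (log2 change -1.19, SE 0.19, adjusted p = 0.000853). The inhibitor gene Nfkbia, which encodes IκBα, fell from 118 ± 2.14 to 98.3 ± 5.37 FPKM (log2 change -0.26, SE 0.07, adjusted p = 0.00847). Rela, the p65 subunit of NF-kB, rose from 30.1 ± 1.62 to 41.1 ± 3.01 FPKM (log2 change 0.44, SE 0.07, adjusted p = 0.00119). The difference from untreated cultures was positive for 17 of the 20 genes. Among 15 tested IL-1 receptor and signalling genes 6 fell and 1 rose. Il1r1, the receptor that binds IL-1β, was at 55.3, 52.6 and 57.8 FPKM and 42.9, 40.4 and 35.8 FPKM (log2 change -0.47, SE 0.08, adjusted p = 0.00107). Its partner Il1rap fell by 0.97, and Mapk14, which encodes the stress kinase p38α, rose by 0.40.

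Acute phase, prostaglandin and nitric oxide genes also split, with 4 of 18 higher and 6 lower (median -0.07). Nos2 was at 94.4, 89.3 and 102 FPKM at 36 h and at 242, 149 and 144 FPKM at 72 h (log2 change 0.86, SE 0.18, adjusted p = 0.003). Nos2 (ENSMUSG00000020826, chromosome 11, 78920787 to 78960254, plus strand) encodes the inducible nitric oxide synthase, and its replicate 1 at 72 h stood above the other libraries. Ptgs2 was at 559.6, 499 and 605 FPKM at 36 h and at 936, 552 and 439.6 FPKM at 72 h (log2 change 0.14, SE 0.23, adjusted p = 0.624). Ptgs2 encodes cyclooxygenase 2, and its 72 h libraries spanned the 36 h range. Saa3, a serum amyloid, was the most abundant gene of the list at 8891, 8660.4 and 8782 FPKM and 8104, 6431 and 7781 FPKM (log2 change -0.25, SE 0.15, adjusted p = 0.181), and passed only after rescaling to TPM, at an adjusted p of 0.0436. Lcn2, an iron-binding lipocalin, fell from 3166 ± 139.8 to 2291 ± 285 FPKM (log2 change -0.47, SE 0.12, adjusted p = 0.00983), and Hp, haptoglobin, by 0.92. Without IL-1β 11 of the 18 genes fell and 3 rose (median -0.84). The change was more positive with IL-1β for 12 of them and less positive for 2. Saa3, Lcn2 and Hp fell by 4.36, 5.63 and 4.02 without IL-1β, while Ptgs2 rose by 1.24. Nos2 moved in opposite directions in treated and untreated cultures, where it went from 1.34 ± 0.052 to 0.10 ± 0.0557 FPKM, a difference of 1.95 (SE 0.20, adjusted p = 1.14e-05). Of 16 tested complement genes 10 were lower and 5 higher (median -0.82). C1s1, a protease of the classical pathway, fell from 107 ± 1.23 to 33.7 ± 1.86 FPKM (log2 change -1.64, SE 0.06, adjusted p = 1.85e-06) and C3, the central component, by 1.08. In untreated cultures 10 of the 16 were also lower and 5 higher (median -1.04). C1s1 and C3 fell more there, by 2.92 and 4.09. Over the 16 genes the change was more positive with IL-1β for 6 and less positive for 2.

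The interferon-stimulated and MHC class I genes fell almost throughout. Of 26 tested, 25 fell (median -0.86). Ifi44, an interferon-induced gene, was at 2.70, 6.26 and 4.76 FPKM at 36 h and at 0.79, 0.62 and 0.54 FPKM at 72 h (log2 change -1.70, SE 0.21, adjusted p = 0.000177). Bst2, which encodes tetherin, a restriction factor for enveloped viruses, was at 25.5, 34.8 and 25.4 FPKM at 36 h and at 8.06, 12.8 and 12.2 FPKM at 72 h (log2 change -1.31, SE 0.17, adjusted p = 0.000277). B2m was at 674, 827 and 764 FPKM at 36 h and at 357, 378 and 418 FPKM at 72 h (log2 change -0.97, SE 0.10, adjusted p = 7.42e-05). B2m (ENSMUSG00000060802, chromosome 2, 122147686 to 122153083, plus strand) encodes the light chain of MHC class I. In all 3 genes every 72 h library was under every 36 h library. The heavy chain genes H2-D1 and H2-K1 fell by 0.69 and 0.68. These 2 are closely related members of a gene family, so their separate values are uncertain. In untreated cultures 24 of the 26 fell (median -0.70), and the fall was larger with IL-1β for 7 and smaller for 1. B2m fell by 0.57 without IL-1β, a difference of -0.40 (SE 0.12, adjusted p = 0.0186).

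Letters before 2 of the fallen genes show the paired GAAA motif of interferon response elements, in capitals as it reads on the plus strand, from RefSeq on GRCm38.p6, 5′ to 3′.
B2m: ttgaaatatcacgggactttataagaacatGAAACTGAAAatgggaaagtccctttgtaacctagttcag
Ifit1: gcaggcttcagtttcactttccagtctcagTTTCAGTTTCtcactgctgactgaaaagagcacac
They lie at chr2:122147518-122147587 and chr19:34640774-34640838, before B2m and Ifit1, both on the plus strand. The Ifit1 stretch also holds another match to the motif, which was left in small letters. Ifit1, an interferon-induced RNA sensor chosen to show the motif after its values were seen, fell from 2.13 ± 0.838 to 0.733 ± 0.127 FPKM (log2 change -0.82, SE 0.18, adjusted p = 0.00496). The motif, GAAA, any 2 bases and GAAA, searched on both strands in the same 300-base windows, was found for 11 of 24 matched genes of the list (45.8%) and for 3.99% of all 27025 genes. Overlapping matches in a window were counted once per gene.

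Matrix genes of cartilage and connective tissue fell more often than they rose. Of 22 tested cartilage matrix genes 13 fell and 1 rose (median -0.33). Col2a1 was at 118, 119 and 112 FPKM at 36 h and at 188, 203 and 209 FPKM at 72 h (log2 change 0.77, SE 0.07, adjusted p = 3.24e-05). Col2a1, the main collagen of cartilage, was the gene that rose. Col11a1 was at 157, 148 and 146 FPKM at 36 h and at 68.6, 72.8 and 67.2 FPKM at 72 h (log2 change -1.10, SE 0.07, adjusted p = 5.61e-06). Col11a1 encodes a collagen of the same fibrils, and moved against Col2a1. Hapln1, the link protein that holds aggrecan to hyaluronan, was at 12.7, 11.8 and 12.7 FPKM at 36 h and at 4.13, 3.76 and 3.03 FPKM at 72 h (log2 change -1.54, SE 0.10, adjusted p = 7.83e-06). None of these 3 genes overlapped between the times. Otor, which encodes a small secreted cartilage protein, fell by 2.37 and Comp, cartilage oligomeric matrix protein, by 0.56. Acan was at 1.33, 1.18 and 1.02 FPKM at 36 h and at 2.22, 1.19 and 1.04 FPKM at 72 h (log2 change 0.16, SE 0.16, adjusted p = 0.409). Acan, the aggrecan core protein, did not pass, and only its 72 h replicate 1 lay above the 36 h libraries. Sox9, the main cartilage transcription factor, was at 6.59, 6.09 and 6.52 FPKM and 10.2, 6.89 and 6.86 FPKM (log2 change 0.26, SE 0.13, adjusted p = 0.123). Prg4, lubricin, was at 115, 108 and 118 FPKM and 104, 101 and 103 FPKM (log2 change -0.15, SE 0.06, adjusted p = 0.0712). Col10a1, a marker of hypertrophic chondrocytes, was at 2.22, 2.04 and 2.53 FPKM and 5.39, 2.56 and 2.67 FPKM (log2 change 0.42, SE 0.20, adjusted p = 0.1).

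Of the 22 cartilage matrix genes 13 fell and 6 rose in untreated cultures (median -0.48). Compared with those cultures, the change of 11 of the 22 was more negative with IL-1β and that of 6 more positive. Comp changed by -0.92 without IL-1β, a difference of 0.35 (SE 0.19, adjusted p = 0.154). Col2a1 rose from 302 ± 11.7 to 765 ± 3.38 FPKM without IL-1β, a difference of -0.56 (SE 0.08, adjusted p = 9.52e-05). Hapln1 went from 16.6 ± 0.603 to 14.8 ± 0.585 FPKM, a difference of -1.38 (SE 0.11, adjusted p = 1.2e-06).

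Of 22 tested small leucine-rich and elastic fibre genes 19 fell (median -0.54). Dcn was at 2054, 2102 and 2108 FPKM at 36 h and at 924, 862 and 836 FPKM at 72 h (log2 change -1.26, SE 0.09, adjusted p = 1.13e-05). Dcn encodes decorin, which coats collagen fibrils. Lum was at 864, 900.0 and 841 FPKM at 36 h and at 298, 285 and 266 FPKM at 72 h (log2 change -1.61, SE 0.08, adjusted p = 3.45e-06). Lum, lumican, has a like role, and both genes fell without overlap. Of 19 tested fibrillar and basement membrane collagens 14 fell (median -0.52). Col3a1 was at 1904, 1886 and 1734 FPKM at 36 h and at 761, 767 and 731 FPKM at 72 h (log2 change -1.29, SE 0.09, adjusted p = 1e-05), and Col18a1, a basement membrane collagen, fell by 1.92. Col1a1, the main collagen of bone and skin, was at 1669, 1671 and 1528 FPKM and 1373, 1564 and 1601 FPKM and did not pass (log2 change -0.10, SE 0.10, adjusted p = 0.415). Of the 22 small leucine-rich and elastic fibre genes 15 fell and 3 rose without IL-1β (median -0.27). Of the 19 collagens 12 fell and 6 rose there (median -0.45). The change was less positive with IL-1β for 9 of the 22 and 8 of the 19, and more positive for 5 of each. Dcn and Lum fell more without IL-1β, by 2.08 and 2.15, and Col18a1 fell less, by 1.16. Col3a1 fell in both, a difference of 0.21 (SE 0.09, adjusted p = 0.076). Col4a5, of basement membranes, fell by 0.90 with IL-1β and rose by 0.36 without it.

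Of 32 tested matrix-degrading enzymes 20 were lower and 7 higher at 72 h (median -0.39), with 4 higher without 36 h replicate 1 or 2. Mmp3 was at 2695, 2848 and 2865 FPKM at 36 h and at 1869, 1225 and 1226 FPKM at 72 h (log2 change -0.99, SE 0.17, adjusted p = 0.001). Mmp3, stromelysin 1, was the most abundant of the list at both times, and its 72 h libraries all lay under those of 36 h. Mmp13 was at 533, 471 and 604 FPKM at 36 h and at 458, 309.9 and 276 FPKM at 72 h (log2 change -0.65, SE 0.18, adjusted p = 0.0121). Mmp13, the main collagenase of cartilage, lost its call in limma without 72 h replicate 2 (adjusted p = 0.0527), without 36 h replicate 3 (0.0548) and with no filter on low values (0.0599). The aggrecanase gene Adamts5 fell from 52.8 ± 3.27 to 17.4 ± 2.38 FPKM (log2 change -1.55, SE 0.10, adjusted p = 7.5e-06) and Adamts4 by 0.70. Mmp2, a gelatinase, fell by 1.41, and Mmp9, another, by 1.21. In untreated cultures 17 of the 32 fell and 6 rose (median -0.25). Mmp3 fell from 186 ± 24.8 to 2.55 ± 0.911 FPKM without IL-1β, a difference of 4.75 (SE 0.25, adjusted p = 3.76e-08), and Mmp13 fell from 310.3 ± 16.2 to 10.3 ± 1.33 FPKM, a difference of 4.14 (SE 0.22, adjusted p = 3.29e-08). Mmp3 and Mmp13 fell less with IL-1β, whereas Adamts5 fell more, with a difference of -0.56 (SE 0.11, adjusted p = 0.00179). Over the list the change was more positive with IL-1β for 10 genes and less positive for 11. The former count was 6 after rescaling to TPM and 6 without 72 h replicate 2 of the untreated culture. Among 15 protease inhibitors 4 rose and 4 fell. Serpinb2 was at 0.32, 0.29 and 0.45 FPKM at 36 h and at 13.2, 8.91 and 7.45 FPKM at 72 h (log2 change 2.97, SE 0.17, adjusted p = 4.82e-06). Serpinb2 (ENSMUSG00000062345, chromosome 1, 107511423 to 107535478, plus strand), an inhibitor of plasminogen activators, had the largest rise of all tested genes. Timp1, an inhibitor of metalloproteinases, rose from 899 ± 30.5 to 1648 ± 93.6 FPKM (log2 change 0.87, SE 0.09, adjusted p = 7.45e-05). Serpina3n, an acute phase protease inhibitor, fell by 2.04.

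Regulators and modifiers of the matrix were also followed. Of 16 tested chondrocyte transcription factors 9 fell and 1 rose (median -0.32), with Mef2c, a factor of hypertrophy, lower by 0.94 and Sox5, a partner of Sox9, by 0.66. Of 16 hypertrophy and mineralization genes 5 rose and 4 fell, or 2 without 36 h replicate 2. Spp1, the mineral-binding protein osteopontin, was at 1895, 1853 and 2115 FPKM at 36 h and at 3037, 2659.9 and 2779.6 FPKM at 72 h (log2 change 0.53, SE 0.11, adjusted p = 0.00324). Alpl, the alkaline phosphatase of mineralizing cells, was at 17.8, 19.7 and 19.1 FPKM at 36 h and at 23.3, 26.3 and 28.8 FPKM at 72 h (log2 change 0.45, SE 0.09, adjusted p = 0.00224). In Spp1 and Alpl the times did not overlap. Of these 16 genes 6 rose and 7 fell in untreated cultures. Alpl changed by 1.04 there, a difference of -0.59 (SE 0.17, adjusted p = 0.0155). Spp1 changed by 0.12 there, a difference of 0.41 (SE 0.11, adjusted p = 0.0128). Of 23 collagen modification genes 8 rose, or 5 without 36 h replicate 1, and 7 fell, with Tgm2, a cross-linking transglutaminase, changed by -0.82 and P4ha3, a collagen prolyl hydroxylase, by -0.68. Of 16 metallothionein, zinc and iron genes 3 rose and 6 fell, or 3 fell without any one of the 36 h libraries. Slc40a1, the iron exporter ferroportin, changed by -1.31 and Tfrc, the transferrin receptor, by 1.00. In untreated cultures 3 of the transcription factors rose and 10 fell. Of the collagen modification genes 4 rose and 14 fell there, and of the metal genes 5 rose and 9 fell. Mef2c, Sox5, Tgm2 and P4ha3 changed there by -0.79, -0.30, -1.23 and -0.26, and Slc40a1 and Tfrc by -0.93 and 0.98. Among these genes only P4ha3 had a difference that passed, at -0.42 (SE 0.11, adjusted p = 0.00843).

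Immediate early genes, which growth factors and stress switch on within minutes through ERK, rose in 23 of 29 tested cases and fell in 2 (median 0.79). Egr2 was at 1.53, 1.80 and 2.32 FPKM at 36 h and at 12.9, 11.3 and 11.1 FPKM at 72 h (log2 change 2.15, SE 0.11, adjusted p = 3.79e-06). Fos was at 5.81, 6.85 and 7.18 FPKM at 36 h and at 20.6, 20.8 and 21.7 FPKM at 72 h (log2 change 1.54, SE 0.08, adjusted p = 4.2e-06). Fos (ENSMUSG00000021250, chromosome 12, 85473890 to 85477273, plus strand) encodes a subunit of the transcription factor AP-1, and Egr2 a zinc finger factor of the early growth response. The groups overlapped in neither. Ier3, a survival gene of this class, was at 145, 148 and 173 FPKM at 36 h and at 653, 419.8 and 477 FPKM at 72 h (log2 change 1.71, SE 0.15, adjusted p = 3.05e-05). Klf2, a Krüppel-like factor, rose by 1.82, and Dusp5, a phosphatase that turns ERK off, by 1.73. Fosl2, a Fos relative, fell by 0.72. Hbegf and Areg, ligands of the EGF receptor, rose by 1.66 and 1.46. Of the 26 tested growth factor and IGF axis genes 5 rose and 12 fell, with Igf1 lower by 1.67 and Igf2 by 1.59.

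In untreated cultures 18 of the 29 immediate early genes rose and 5 fell (median 0.24). The change was more positive with IL-1β than without it for 14 and less positive for 2. For Fos this difference was 0.13 (SE 0.10, adjusted p = 0.328) and for Egr2 0.66 (SE 0.14, adjusted p = 0.00324). In the co-culture with IL-1β 9 of the 29 rose and 13 fell (median -0.04). The change in normal culture was more positive than in co-culture for 17 of the 29. Over all tested genes that difference passed for 83 (0.682%), positive in 53 (0.435%) and negative in 30 (0.246%), and 1270 genes had an unadjusted p under 0.05. The list count ran from 13 to 21 over the alternatives, all of them positive. Fos went from 30.8 ± 1.49 to 18.8 ± 0.378 FPKM in co-culture, a difference of 2.22 (SE 0.10, adjusted p = 2.14e-08). Egr2 went from 8.28 ± 0.171 to 8.61 ± 0.242 FPKM, a difference of 2.10 (SE 0.13, adjusted p = 1.12e-06). Nr4a1, an orphan nuclear receptor, fell from 114 ± 2.30 to 39.0 ± 2.29 FPKM in co-culture and rose from 38.9 ± 0.808 to 56.0 ± 2.41 FPKM in normal culture, a difference of 2.03 (SE 0.08, adjusted p = 9.75e-09). At 72 h the mean of Fos was 21.0 FPKM in normal culture and 18.8 FPKM in co-culture, and at 36 h 6.61 and 30.8 FPKM. For Fos the difference lay mainly at 36 h, where it was lower in normal culture, while at 72 h the means were close.

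**Figure D3:**
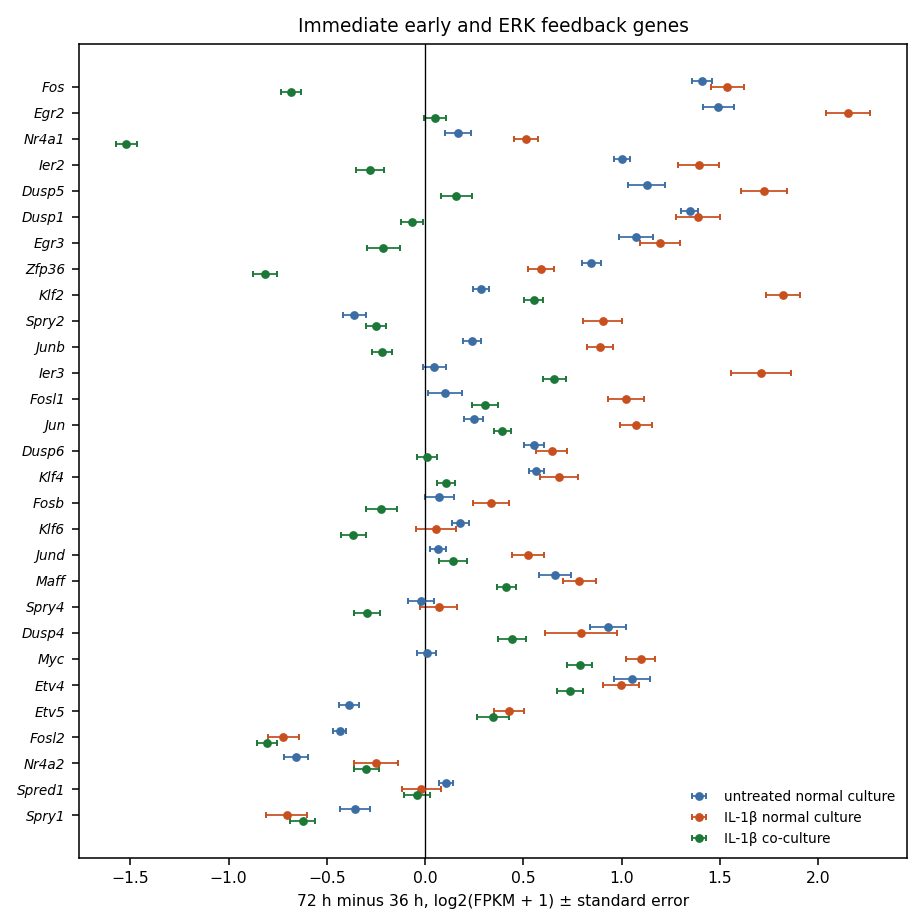
Difference of log2(FPKM + 1) between 72 h and 36 h (horizontal axis, points with standard errors) for the 29 tested immediate early and ERK feedback genes in untreated normal culture (blue), IL-1β normal culture (orange) and IL-1β co-culture (green), ordered by the difference of orange and green. Fos, Egr2 and Nr4a1 lie at the top, with the orange points to the right of the green ones.

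Across all tested genes most changes were shared with the IL-1β co-culture. Of the 3692 genes that rose in normal culture 3241 also rose in co-culture (87.8% of these and 78% of the 4157 that rose there), and 31 fell. Of the 3130 that fell 2661 also fell (85% and 78% of 3412), and 8 rose. The overlap with untreated cultures was smaller. Of the genes that rose with IL-1β 2532 also rose without it (68.6%, or 57.4% of 4410) and 248 fell, and of those that fell 1883 also fell (60.2%, or 56.4% of 3337) and 306 rose. These 3 time comparisons share no library. Without 72 h replicate 1 of the IL-1β normal culture, 190 genes in place of 83 differed from the co-culture in their change, among them 12 of 28 mitosis genes and 7 of 25 amino acid stress genes, all more positive in normal culture. All 554 genes with opposite calls in treated and untreated normal culture also passed the test of the difference between the changes. That was largely set by their selection, since the same libraries entered the calls and the test.

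**Figure D4:**
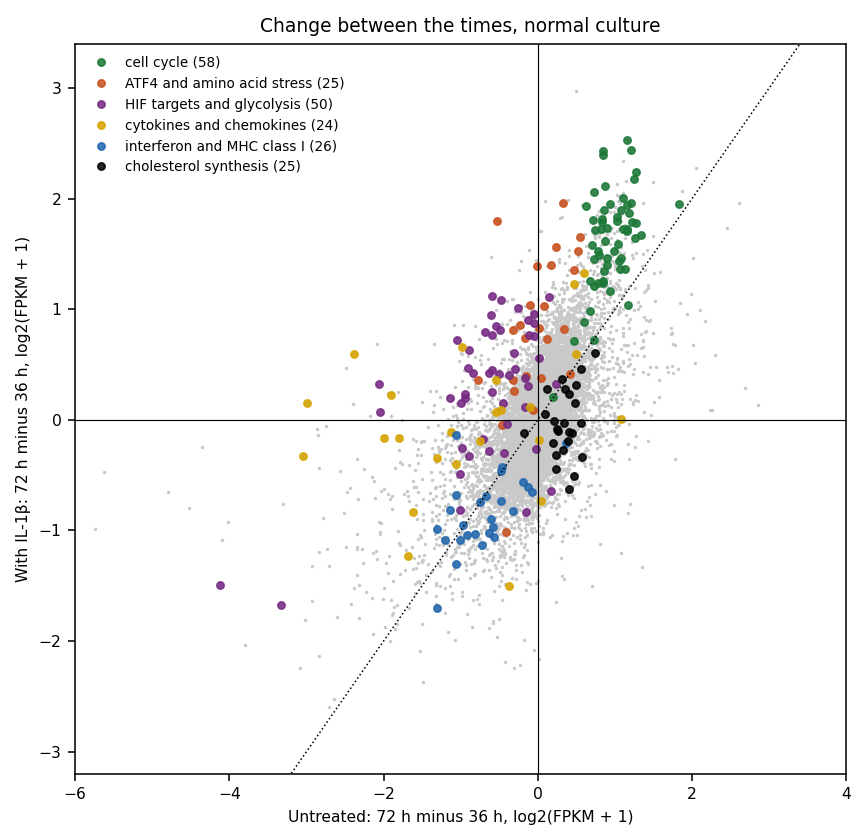
Each grey point is 1 of the 12178 tested genes, placed by its difference between 72 h and 36 h in untreated (horizontal) and IL-1β-treated (vertical) normal culture, both in log2(FPKM + 1), with members of 6 gene groups in colour and a dotted line of equal change. Most cell cycle genes lie above the line at the upper right, and most HIF and glycolysis genes (purple) lie left of 0 without IL-1β and above 0 with it.

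Signalling ligands and antagonists changed by family. Of 23 tested WNT genes 16 fell and 1 rose (median -0.39). Dkk2 was at 9.29, 9.50 and 8.92 FPKM at 36 h and at 1.47, 1.59 and 1.23 FPKM at 72 h (log2 change -2.08, SE 0.08, adjusted p = 2e-06). Dkk2, a WNT antagonist, was lower at 72 h in every library, and without IL-1β it was near 1.93 FPKM at both times, a difference of -2.03 (SE 0.11, adjusted p = 3.76e-08). Rspo2 and Rspo3, which strengthen WNT signals, fell by 1.07 and 1.01. They changed by -1.25 and -1.32 without IL-1β, and neither difference passed in limma (adjusted p = 0.257 and 0.0888). Of the 23 WNT genes 15 fell and 4 rose in untreated cultures (median -0.41). The change was less positive with IL-1β for 9 of them and more positive for 4. Of 29 tested TGF-beta and BMP genes 11 rose and 10 fell. Tgfb2, a ligand, fell by 1.44, and Id1, a target of BMP signalling, rose by 1.34. Grem1, a BMP antagonist, fell from 376 ± 45.3 to 176 ± 43.6 FPKM (log2 change -1.12, SE 0.18, adjusted p = 0.000744). Inhbb, an activin subunit, fell by 1.12 with IL-1β and rose by 0.81 without it. In untreated cultures the TGF-beta and BMP list had 15 higher and 9 lower, and the change was less positive with IL-1β for 16 of 29.

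Genes of the circadian clock, the cell's daily oscillator, included some of the largest changes. Of 17 tested 2 rose and 8 fell (median -0.23). Dbp was at 24.1, 25.9 and 17.6 FPKM at 36 h and at 3.43, 3.59 and 4.84 FPKM at 72 h (log2 change -2.24, SE 0.15, adjusted p = 9.74e-06). Ciart was at 0.68, 0.81 and 1.18 FPKM at 36 h and at 7.59, 4.22 and 5.69 FPKM at 72 h (log2 change 1.83, SE 0.17, adjusted p = 4.22e-05). Dbp is an output factor of the clock and Ciart one of its repressors, and they moved in opposite directions without overlap. Per3, a period gene, fell by 1.49, and the repressor genes Nr1d1 and Nr1d2 fell by 0.59 and 0.76. Without IL-1β Dbp went from 10.6 ± 0.585 to 8.31 ± 0.258 FPKM, a difference of -1.93 (SE 0.18, adjusted p = 3.74e-06). With 2 times 36 h apart, an oscillation and a lasting change cannot be told apart.

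Metabolic and structural lists were mixed. NRF2 antioxidant genes rose in 10 of 25 cases and fell in 5, against 20 and 1 without IL-1β, and the change was less positive with IL-1β for 13. Gsta4, a glutathione transferase that clears lipid aldehydes, fell from 57.8 ± 2.53 to 22.5 ± 2.99 FPKM with IL-1β and rose from 13.4 ± 1.61 to 35.5 ± 1.00 FPKM without it, a difference of -2.68 (SE 0.12, adjusted p = 1.27e-08). Nqo1, a quinone reductase, was at 177, 179 and 184 FPKM and 201, 182 and 193 FPKM (log2 change 0.09, SE 0.07, adjusted p = 0.266). Cholesterol synthesis genes rose in 6 and fell in 6 of 25 cases, while 23 of the 25 rose without IL-1β. Hmgcs1, an early enzyme of the pathway, fell by 0.45 with IL-1β and rose by 0.24 without it. The difference was negative for 15 of the 25. Contractile and actin genes rose in 9 of 21 cases (5 without 36 h replicate 2 or 3) and fell in 2, against 20 and 1 without IL-1β. Acta2, smooth muscle actin, was at 1244, 1369 and 1292 FPKM and 893, 1305 and 1425 FPKM (log2 change -0.14, SE 0.16, adjusted p = 0.503), and Zyx, a focal adhesion protein, rose by 1.43. Of 23 lysosome and autophagy genes 12 were lower and 4 higher (1 or 2 without any one library), with Lamp2, a lysosomal membrane protein, lower by 0.73. Nuclear-encoded respiratory chain genes rose in 11 of 35 cases, close to the share of all genes, and in 18 without 72 h replicate 1.

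Markers of other cells moved as well, and their part in the results above was not tested. Of 15 tested skeletal muscle markers 13 fell (median -1.32), and their summed level went from between 320.4 and 342 FPKM to between 92.4 and 106 FPKM. Mb was at 34.8, 44.3 and 36.3 FPKM at 36 h and at 4.78, 6.43 and 6.44 FPKM at 72 h (log2 change -2.52, SE 0.12, adjusted p = 3.45e-06). Mb encodes myoglobin, and in untreated cultures it fell as well, from 27.1 ± 2.63 to 3.49 ± 0.349 FPKM. Acta1, skeletal actin, fell by 1.84. Of 15 tested macrophage and myeloid markers 13 rose and 1 fell (median 0.56), with sums between 85.1 and 96.5 FPKM at 36 h and between 164 and 194 FPKM at 72 h. Lyz2, lysozyme, made up most of that sum, and went from 57.5 ± 3.91 to 112 ± 6.17 FPKM (log2 change 0.95, SE 0.07, adjusted p = 1.76e-05). In untreated cultures 11 of the 15 myeloid markers rose and 0 fell (median 0.75). In the IL-1β co-culture 13 rose and 1 fell (median 0.67). The change in normal culture was more positive with IL-1β than without it for 3 of the 15 and less positive for 4. Ptprc, the pan-leukocyte marker, reached at most 0.42 FPKM in these 6 libraries and Cd163, of resident macrophages, 0.08 FPKM, both below the filter. S100a8, a calcium-binding protein of neutrophils that other cells also make, rose by 1.98. Of 15 fibroblast markers 4 rose and 8 fell, with Fap lower by 1.62 and S100a4 higher by 1.16. Adipocyte markers fell in 4 of 5 cases, with Fabp4, a fatty acid carrier, lower by 1.40. Of the endothelial markers Pecam1 reached at most 0.31 FPKM, and of the epithelial markers Krt5 0.06 and Epcam 0.07 FPKM. Together the epithelial markers summed to between 7.94 and 9.78 FPKM at 36 h and between 22.9 and 35.2 FPKM at 72 h. Without IL-1β 7 of the 8 tested epithelial markers rose and 1 fell. Of 12 chondrocyte markers 7 fell and 1 rose, of 7 synovial lining markers 2 rose and 2 fell, of 6 osteoblast markers 2 rose and 2 fell, and of 8 epithelial markers 2 rose and 1 fell. Of 2 tested endothelial markers 1 fell. No lymphoid or erythroid marker passed the filter, and those markers summed to at most 0.28 FPKM at 36 h.

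The 3 libraries at 72 h differed from each other list by list. Replicate 1 was the lowest of the 3 for all 30 DNA replication genes, all 28 mitosis genes and 33 of 34 ribosomal protein genes, where it was lowest for 39.8% of all tested genes. It was the highest for 28 of 29 HIF targets and 18 of 24 cytokines, against 37% of all tested genes. The median of the DNA replication genes lay -0.278 from the mean of the 3 in replicate 1, 0.152 in replicate 2 and 0.172 in replicate 3, on the log2 scale. For HIF targets the same medians were 0.244, -0.147 and -0.115. Replicate 3 was the highest for all 34 ribosomal protein genes. Of the ribosomal protein genes 1 rose and 1 fell between the times, while 7 fell without 72 h replicate 3 and 4 rose without 72 h replicate 1. Of the cell cycle genes, all 58 rose without 72 h replicate 1, and 57 with it.

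**Figure D5:**
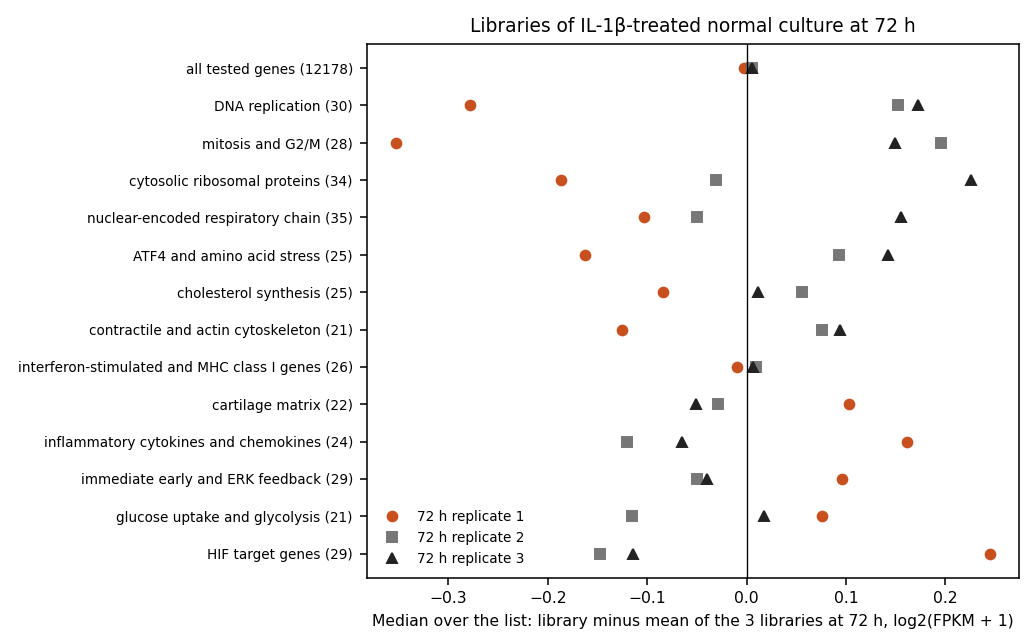
Median over the members of each list of the library's log2(FPKM + 1) minus the mean of the 3 libraries at 72 h (horizontal axis), for replicates 1 (circle), 2 (square) and 3 (triangle) of IL-1β-treated normal culture, with the number of tested members in brackets. Replicate 1 lies left for the cell cycle lists and right for the HIF targets.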

How the data were processed

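RNA of 24 mouse chondrocyte libraries was sequenced after poly(A) selection, per the labels' protocols. The authors deposited 1 table of FPKM for 17094 genes, to 2 decimals. GRCm38 is named in the submitters' processing notes, and aligner and annotation are not given in the sources used here. Genes with at least 1 FPKM in at least 3 of 24 libraries (12178) were tested on log2(FPKM + 1), computed from the deposited values, with limma 3.58.1 (trend) in R 4.3.3, on the 6 compared libraries (4 residual degrees of freedom) or 12 for a difference of changes (8). Adjusted p-values are Benjamini-Hochberg over all tested genes, two-sided, at 0.05. The fit was tested on simulated data. The 44 gene lists (908 genes, 37 of them not in the table) and members were chosen with earlier results of these data known. Mitochondrially encoded genes were not analysed here. Named genes are a selection from a core set, the 12 largest changes each way and the 6 largest differences each way from the other cultures (both at a mean of at least 5 FPKM), and, per list, up to 6 called genes of largest change and 3 of highest level, except where stated. Positions are from GENCODE vM21. Alternatives were another pseudocount, filter and scaling, all 24 libraries, a replicate block and leaving out each library.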

Additional observations from a re-analysis of the deposited data

Results flagged for a closer look

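The time change of 10 genes differed between IL-1β-treated and untreated normal culture by limma's test of the difference itself, given here as the treated minus the untreated log2 change, with the adjusted p. The difference was 2.32 for Trib3 (6.91e-08), 1.63 for Shmt2 (6.44e-06), 1.72 for Higd1a (1.49e-06), 1.27 for Eno1 (9.55e-07) and 1.95 for Nos2 (1.14e-05). It was -1.93 for Dbp (3.74e-06), -2.68 for Gsta4 (1.27e-08), -1.93 for Inhbb (1.09e-06), -2.03 for Dkk2 (3.76e-08) and -1.25 for Col4a5 (9.49e-05).

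For 6 genes the time change differed in the same way between IL-1β-treated normal culture and IL-1β-treated co-culture. The normal culture minus co-culture difference was 2.22 for Fos (2.14e-08), 2.10 for Egr2 (1.12e-06), 2.03 for Nr4a1 (9.75e-09), 1.67 for Ier2 (1.91e-05) and 1.57 for Dusp5 (8.62e-05). It was -0.78 for Mylpf (0.017), a myosin light chain of fast skeletal muscle, which went from 57.8 ± 1.75 to 39.6 ± 5.41 FPKM in co-culture and from 71.5 ± 6.82 to 28.0 ± 2.56 FPKM in normal culture. These genes were picked for display from the rule-named genes after their values were seen.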

How the results depend on the processing

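The count of genes changed between 36 h and 72 h was 6822, and 8416 when all 24 libraries shared one estimate of the spread; leaving out 1 library gave 5364 to 7520. Rescaling to TPM gave 6560, of which 47.4% were higher in place of 54.1%. The genes whose change differed from the IL-1β co-culture numbered 83, and 317 with all 24 libraries, 315 with all 24 and a replicate block, and 43 to 190 when 1 library was left out. The cause was not tested. Of those, 190 came without 72 h replicate 1 and 50 and 51 without 36 h replicates 1 and 2 of the normal culture, and 43, 49 and 47 without 36 h replicates 1, 2 and 3 of the co-culture. The labels number replicates alike in each group, but libraries with the same number did not deviate together (correlations 0.12, -0.10 and -0.26), so the numbers were not taken as pairs. With a replicate block on the compared groups the count was 6436, and 87 for the difference from co-culture. Depth is unknown, so genes of a few FPKM carry a counting error that cannot be given.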
